A study of Homo sapiens with 6 samples.

Results

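The genes described here are 7 chemokine genes of the human kidney tubule cell line HK-2: the CC chemokines CCL2, CCL5, CCL7, CCL20, CCL26 and CCL28, and the CX3C chemokine CX3CL1. They were found by symbol among the 31831 genes of the deposited count table, and all 7 had a row. HK-2 is an immortalised line of human proximal tubular epithelium. Both groups carried a lentiviral vector and were kept in medium with 30 mM glucose for 72 h. The control group (HG-NC, 3 libraries) had the empty vector, and the other group (HG-OE, 3 libraries) overexpressed hnRNP-F, an RNA-binding protein, in the same line. The study calls the libraries of a group biological replicates and its methods describe parallel wells for each group. Neither these nor the labels say whether the libraries came from separate infections, so the p-values below measure the spread between these libraries, which may be technical. Groups kept in mannitol as an osmotic control were not analysed here.

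Chemokines are small secreted proteins that draw leukocytes along a gradient through G protein-coupled receptors. The CC and CX3C families are named after the spacing of their conserved cysteines. An injured or inflamed tubular epithelium is a known source of several of them, and their mRNAs are typically induced through NF-κB, interferon or STAT6 signalling and removed through AU-rich elements in the 3′UTR. CX3CL1 stands apart because it is made as a membrane-anchored protein on a mucin stalk, which tethers cells until proteases release it.

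The libraries held 25507595 to 29444841 counted read pairs. HNRNPF, the overexpressed gene, had 7733, 8623 and 8692 counts in HG-NC and 12492, 13155 and 12397 counts in HG-OE, or 0.48 higher on the log2 scale (SE 0.0388). Epithelial keratins (KRT8, KRT18 and KRT19), CDH2 and the renal factor PAX8 had at least 4017 counts in every library. Of the other markers on that list, AQP1 had at most 7 counts. LRP2 had 17 counts in HG-OE replicate 3 and 0 in every other library. ANPEP had 54 counts in HG-OE replicate 3 and at most 4 in every other library. GGT1, CUBN and SLC34A1 had 10 to 42 counts in every library, and PAX2 had 53 to 88. KRT8 (log2 fold change 1.35), KRT18 (0.76) and CDH2 (0.25) were higher in HG-OE, while KRT19 (−0.55) and PAX8 (−0.51) were lower. Among the HG-OE libraries, replicate 3 had the most counts of KRT8 (18256, 19006 and 28781), KRT18 (8054, 8221 and 14286) and KRT19 (4017, 4281 and 5596). HG-OE replicate 3 stood apart. The summed level of 11 hepatocyte genes was 640 CPM (counts scaled to the library total) there, against 266 to 277 CPM in HG-NC and 461 and 463 CPM in the other HG-OE libraries. Most of that sum outside HG-OE replicate 3 was SERPINA1, with 258 to 275 CPM in HG-NC and 457, 458 and 395 CPM in HG-OE. The other 10 genes summed to 1.85, 1.44 and 9.62 CPM in HG-NC and to 4.62, 4.88 and 244.9 CPM in HG-OE. Their sum was thus highest in replicate 3 of both groups.

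Of the 7 chemokines, 5 passed the low-count filter (CCL2, CCL5, CCL20, CCL28 and CX3CL1), and CCL7 and CCL26 did not. CCL2, CCL20 and CCL5 were called lower in HG-OE, which required an adjusted p under 0.05 in edgeR's quasi-likelihood test and a change of at least 2-fold. CCL28 and CX3CL1 rose with adjusted p under 0.05 by less than 2-fold. CCL26 and CCL7 were at the limit of detection in both groups. Among all 17142 genes tested, 2.13% were called lower and 3.69% higher, and without the fold threshold 25.9% were lower and 25.9% higher. Over the whole set of tested genes the median log2 fold change was 0.011. With 3 libraries against 3, the exact two-sided permutation test cannot give a p below 0.1, and it gave 0.1 for each of the 5 tested chemokines. In RNA from whole cultures, a change in the number of expressing cells and a change in RNA per cell cannot be told apart.

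The stretches around one AU-rich pentamer of the 4 chemokine mRNAs with the highest levels are shown because this element marks short-lived cytokine mRNAs. They were read from the GRCh38 genome of the files' build through the GENCODE canonical transcripts, in the 3′UTR, 5′ to 3′ on the gene's strand, with each ATTTA in capitals. They lie at chr17:34256951-34256979 (CCL2, + strand), chr2:227817283-227817311 (CCL20, + strand), chr16:57383320-57383348 (CX3CL1, + strand) and chr5:43379518-43379546 (CCL28, - strand).
CCL2: atgttaattcttATTTAagttattgatgt
CCL20: gtattttatgttATTTAtagctgtaggtt
CX3CL1: caatgaacaattATTTAttaaatgcccag
CCL28: agcATTTAATTTATTTAttttcctgacat

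The 3′UTR of CCL2 (376 bases) held 1 ATTTA and that of CCL20 (473 bases) held 3. CX3CL1 (2012 bases) held 2 and CCL28 (2667 bases) held 7. The 3′UTRs of CCL5 (779 bases) and CCL26 (155 bases) held none, and that of CCL7 (440 bases) held 1. Among 13594 tested protein-coding genes, 72.3% held at least 1 ATTTA in a 3′UTR of 1317 bases at the median. The longer core TTATTTATT, counted on the transcript strand and overlapping the pentamer, was present once in CX3CL1 and once in CCL28 and was not found in the other 5. It was present in 9.53% of the 3′UTRs of these 13594 genes, whose median log2 fold change was −0.13 with it and 0.01 without it. These counts describe the letters of the transcripts only, and the 3′UTRs of CX3CL1 and CCL28 are also the longest of the 7.

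CCL2 (ENSG00000108691.9, chr17:34255274-34257208, + strand), which draws monocytes through the receptor CCR2, showed the largest change of the 7. Its counts were 3565, 4036 and 4051 in HG-NC and 670, 552 and 575 in HG-OE. This was 140, 149 and 145 CPM in HG-NC and 23.1, 19.0 and 19.6 CPM in HG-OE. The highest HG-OE library was thus far below the lowest HG-NC library. The mean fell from 145 ± 4.45 CPM to 20.6 ± 2.22 CPM (SD, n = 3 each), or 7.04-fold. The log2 fold change was −2.82 (SE 0.0636, 95% interval −2.95 to −2.68, adjusted p = 4.90e-12 by edgeR, adjusted by Benjamini-Hochberg over every gene tested). CCL2 was the 16th lowest of the 17142 genes tested by log2 fold change.

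CCL20 (ENSG00000115009.13, chr2:227805739-227817564, + strand), the ligand of CCR6 on lymphocytes and immature dendritic cells, had the highest FPKM of the 7 in every library. Its counts were 5557, 5796 and 6018 in HG-NC and 2479, 2196 and 2440 in HG-OE, or 219, 214 and 215 CPM against 85.4, 75.4 and 83.3 CPM. The groups did not overlap, and the HG-NC libraries lay within a narrow band. The mean fell from 216 ± 2.29 CPM to 81.4 ± 5.27 CPM (SD, n = 3 each), or 2.65-fold. The edgeR log2 fold change was −1.41 (SE 0.0474, 95% interval −1.51 to −1.31, adjusted p = 1.56e-10).

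The 250 bases before a RefSeq start site of CCL20 and of CCL28 are shown as a pair because these genes moved in opposite directions. RefSeq's promoter table on GRCh38.p14 held 4 of the 7 genes (CCL7, CCL20, CCL26 and CCL28). CCL28 also had another start site, whose stretch at chr5:43397138-43397387 is not shown. The sequences run 5′ to 3′ on the gene's strand, from chr2:227813592-227813841 (CCL20, + strand, inside the gene span given above because RefSeq starts this transcript later) and chr5:43412392-43412641 (CCL28, - strand). Capitals mark matches to the κB consensus and to TATAAA.
CCL20: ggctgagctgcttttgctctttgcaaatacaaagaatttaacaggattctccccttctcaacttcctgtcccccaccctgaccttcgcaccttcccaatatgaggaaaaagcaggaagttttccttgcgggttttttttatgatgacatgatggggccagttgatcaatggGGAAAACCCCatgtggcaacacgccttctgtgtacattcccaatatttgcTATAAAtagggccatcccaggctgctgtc
CCL28: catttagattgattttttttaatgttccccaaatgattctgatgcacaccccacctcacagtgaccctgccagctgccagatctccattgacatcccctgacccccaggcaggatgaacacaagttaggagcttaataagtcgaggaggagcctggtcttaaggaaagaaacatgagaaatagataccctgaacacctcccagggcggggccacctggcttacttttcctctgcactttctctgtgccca

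In CCL20, the κB match began 79 bases before the start and TATAAA began 29 bases before it. Neither was found in the CCL28 stretch or at the other CCL28 start site. The search covered both strands of the 250 bases before and 50 bases after each start, for the κB consensus, TATAAA and TGANTCA (the AP-1 type element), which 5.91%, 11.5% and 7.71% of 35116 RefSeq promoters held. CCL7 held TATAAA 30 bases and TGANTCA 51 bases before its start, and CCL26 held none of the 3. A match is a description of the sequence, and its absence says only that these letters are not in this window.

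CCL5 (ENSG00000271503.6, chr17:35871491-35880793, - strand), which attracts T cells, eosinophils and monocytes, had a low level. Its counts were 48, 50 and 53 in HG-NC and 9, 15 and 45 in HG-OE. This was 1.89, 1.85 and 1.90 CPM in HG-NC and 0.310, 0.515 and 1.54 CPM in HG-OE. All 3 HG-OE libraries were below all HG-NC libraries, but replicate 3 lay close to the control level while the others were well below it. The edgeR log2 fold change was −1.25 (SE 0.410, 95% interval −2.13 to −0.36, adjusted p = 0.0206).

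Without HG-OE replicate 3, the edgeR log2 fold change of CCL5 was −2.17 (adjusted p = 2.16e-07). It missed the threshold when any of the other 5 libraries was left out, with adjusted p = 0.0716, 0.0669 and 0.0643 without HG-NC replicates 1, 2 and 3, and 0.0652 and 0.0794 without HG-OE replicates 1 and 2, where the log2 fold change was −0.87 and −1.02. The 8 leukocyte markers did not move together. HG-OE replicate 3 had the most counts of the monocyte genes CD14 (80, 78 and 79 in HG-NC, 120, 141 and 428 in HG-OE) and LYZ (12, 20 and 20 in HG-NC, 7, 9 and 40 in HG-OE). CD14 was called higher (log2 fold change 1.41, edgeR adjusted p = 0.00573), with every HG-OE library above every HG-NC library. This call rested on HG-OE replicate 3. Without it, 0 of the 5 tested leukocyte markers were called higher and 1 was called lower. At an edgeR adjusted p under 0.05 alone, 1 was then higher and 3 were lower. LYZ had a log2 fold change of −0.01 (adjusted p = 0.989). Counts of the macrophage gene CSF1R were lowest in HG-OE replicate 3 (94, 142 and 135 in HG-NC, 81, 62 and 51 in HG-OE). CSF1R was called lower (log2 fold change −1.05, edgeR adjusted p = 5.54e-04), and CD68 also fell (−0.67, adjusted p = 0.0198). The pan-leukocyte PTPRC was at 1 to 2 counts in every library, and the T cell marker CD3E was at 0 except for 3 counts in HG-OE replicate 3. The 8 summed to 10.2 to 11.7 CPM in HG-NC and to 9.13, 9.03 and 19.8 CPM in HG-OE. The part of these in the CCL5 values was not tested. A long non-coding RNA on the opposite strand (ENSG00000270240) covers all 9303 bases of CCL5, and the strand setting of the read counting is not given in the sources used here. The deposited table gave that RNA 0, 0 and 1 counts in HG-NC and 3, 3 and 1 counts in HG-OE.

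CX3CL1 (ENSG00000006210.7, chr16:57372477-57385044, + strand), the membrane-anchored ligand of CX3CR1, moved the other way. Its counts were 1807, 2118 and 2032 in HG-NC and 2693, 2680 and 2512 in HG-OE, or 71.1, 78.2 and 72.7 CPM against 92.8, 92.0 and 85.8 CPM. The groups did not overlap, though the gap between the highest HG-NC and the lowest HG-OE library was small. The mean rose from 74.0 ± 3.77 CPM to 90.2 ± 3.86 CPM (SD, n = 3 each), or 1.22-fold. The edgeR log2 fold change was 0.29 (SE 0.0496, 95% interval 0.18 to 0.39, adjusted p = 2.84e-04).

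CCL28 (ENSG00000151882.11, chr5:43376645-43412391, - strand), an epithelial chemokine that signals through CCR10 and CCR3, also rose. Its counts were 504, 519 and 528 in HG-NC and 753, 748 and 710 in HG-OE, or 19.8, 19.2 and 18.9 CPM against 25.9, 25.7 and 24.2 CPM. Every HG-OE library was above every HG-NC library. The mean rose from 19.3 ± 0.477 CPM to 25.3 ± 0.920 CPM (SD, n = 3 each), or 1.31-fold. The edgeR log2 fold change was 0.39 (SE 0.0638, 95% interval 0.25 to 0.53, adjusted p = 1.69e-04). Of all genes tested, 29.4% had all HG-OE libraries below all HG-NC libraries, as CCL2, CCL5 and CCL20 had, and 29.6% had them all above, as CX3CL1 and CCL28 had.

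CCL26 (ENSG00000006606.9, chr7:75769533-75789896, - strand), an eosinophil attractant that binds CCR3 and is induced through STAT6, had 7, 5 and 4 counts in HG-NC and 3, 6 and 7 counts in HG-OE. The groups overlapped. The rate in HG-OE was 0.920 of that in HG-NC, with an exact 95% counting interval of 0.431 to 1.97 that covers counting error only, and the exact two-sided permutation test gave p = 0.7. A change within this interval was not detectable at this depth. CCL7 (ENSG00000108688.11, chr17:34270221-34272242, + strand), a monocyte attractant next to CCL2, had 1 count in HG-NC replicate 2 and 0 in the other 5 libraries. A count of 0 in a library allows up to 3 counts, or 0.102 to 0.118 CPM. No fold is given for CCL7.

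**Figure D1:**
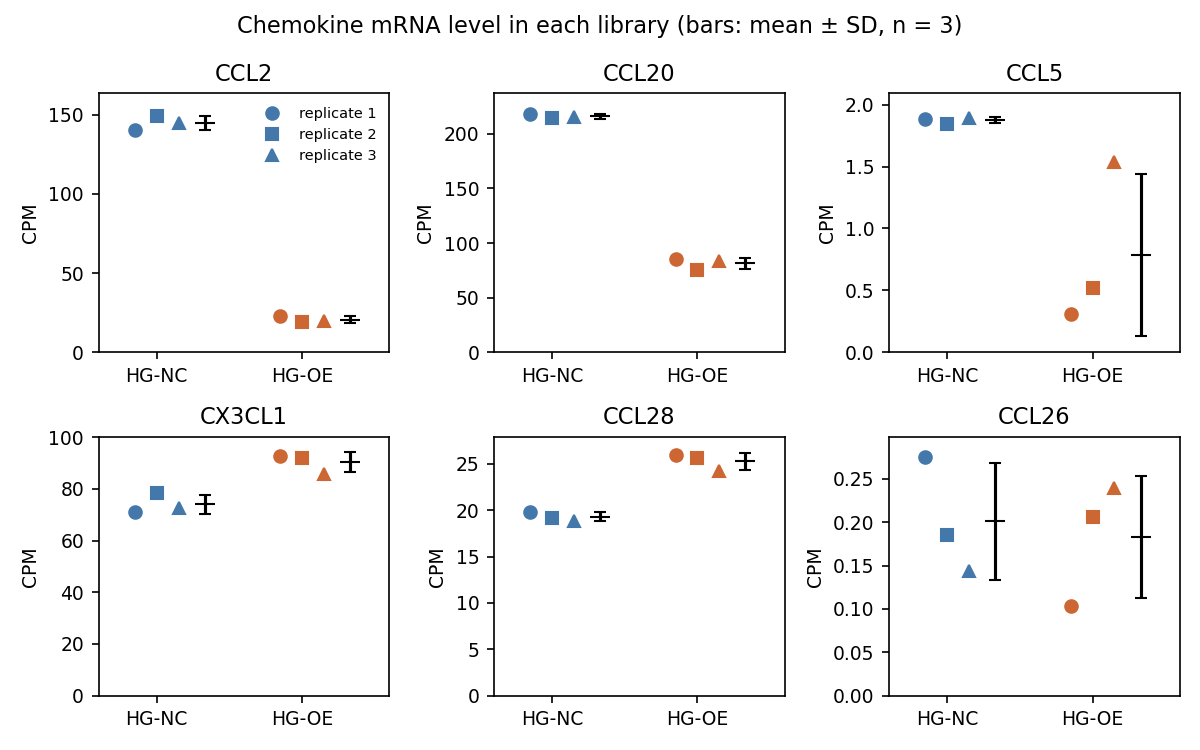
CPM (linear axis from 0) of 6 chemokines in each HG-NC and HG-OE library, with symbols for the replicate and a black bar for the mean ± SD of 3 libraries. CCL2 drops from 145 to 20.6 CPM and CCL20 from 216 to 81.4 CPM with tight replicates, CCL5 is spread over 0.310 to 1.54 CPM in HG-OE, CX3CL1 and CCL28 sit higher in HG-OE, and CCL26 overlaps.

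**Figure D2:**
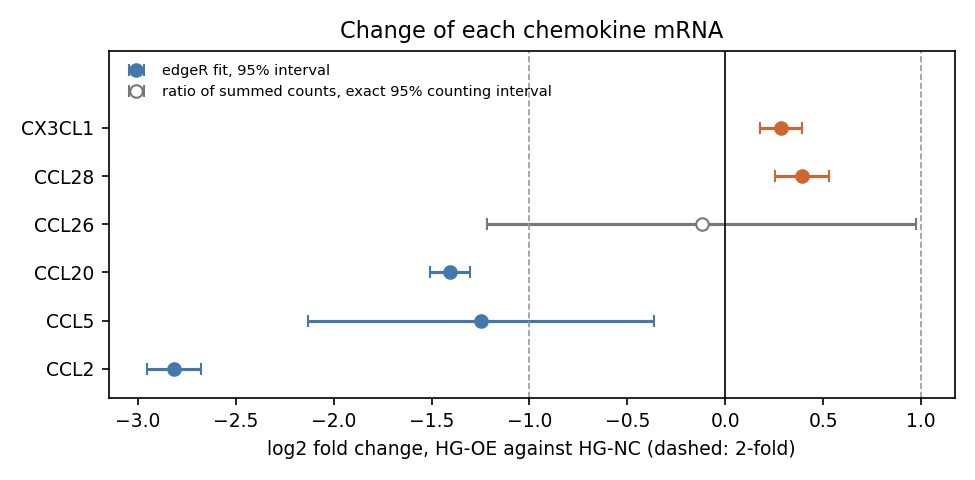
Log2 fold change of HG-OE against HG-NC for each chemokine, as edgeR's estimate with its 95% interval, or for CCL26 as the ratio of summed counts with its exact 95% counting interval. CCL2 at −2.82 and CCL20 at −1.41 lie beyond the dashed 2-fold line, the interval of CCL5 (−2.13 to −0.36) crosses it, and CCL28 and CX3CL1 lie between 0 and 2-fold higher.

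Levels of different genes were compared in FPKM, which takes the length of the transcript into account. In HG-NC the order was CCL20 (121 ± 1.18 FPKM), CCL2 (65.2 ± 2.06), CX3CL1 (11.1 ± 0.560), CCL28 (3.82 ± 0.0833), CCL5 (1.12 ± 0.02) and CCL26 (0.253 ± 0.0874; SD, n = 3 for each), and no neighbours in this order overlapped. In HG-OE it was CCL20 (45.2 ± 3.18 FPKM), CX3CL1 (13.4 ± 0.588), CCL2 (9.17 ± 1.04), CCL28 (4.95 ± 0.19), CCL5 (0.463 ± 0.391, with 0.18, 0.30 and 0.91 in the 3 libraries) and CCL26 (0.230 ± 0.0889). CX3CL1 and CCL2 had changed places, and the values of CCL5 and CCL26 overlapped in HG-OE. CCL7 was last in both groups. The sum over the 7 genes was 202.8 ± 1.31 FPKM in HG-NC and 73.4 ± 4.10 FPKM in HG-OE. CCL20 made up 59.8% ± 0.961 of it in HG-NC and 61.5% ± 1.30 in HG-OE, and CCL2 made up 32.2% ± 0.809 and 12.5% ± 0.802. The share of CX3CL1 was 5.48% ± 0.243 in HG-NC and 18.3% ± 1.22 in HG-OE, and that of CCL28 was 1.88% ± 0.0517 and 6.76% ± 0.419.

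**Figure D3:**
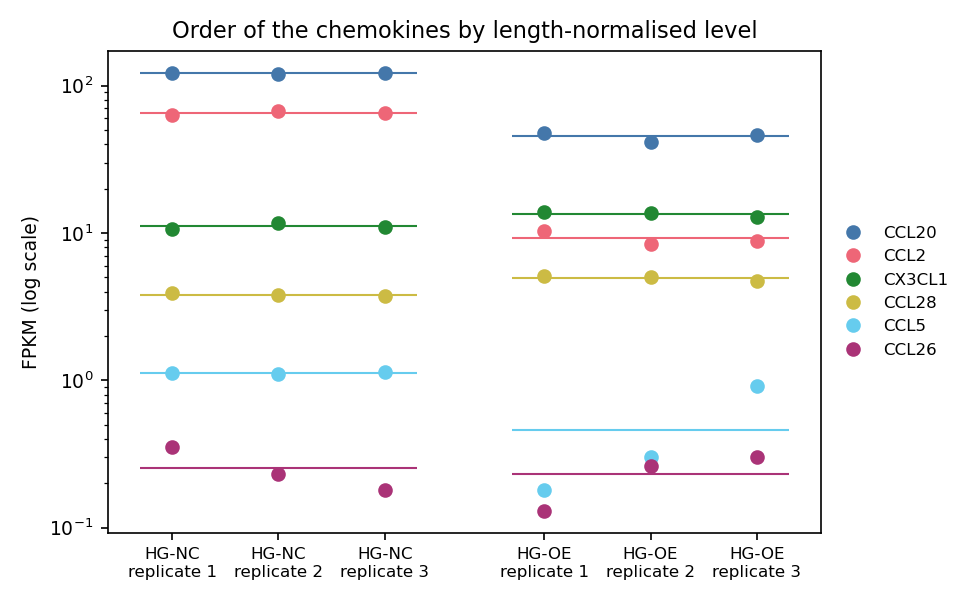
FPKM (log axis) of 6 chemokines in each library, with a line at the mean of each group of 3. CCL20 is on top throughout, CCL2 drops from 65.2 to 9.17 FPKM and falls below CX3CL1 in each HG-OE library, and CCL5 and CCL26 meet at the bottom in HG-OE.

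Within a library, the ratio of CX3CL1 to CCL2 does not depend on the library's size. In FPKM it was 0.169, 0.175 and 0.167 in HG-NC and 1.34, 1.62 and 1.45 in HG-OE, so that CCL2 exceeded CX3CL1 in each control library and CX3CL1 exceeded CCL2 in each overexpressing library. Fold changes of ratios were taken from the counts. For CX3CL1 to CCL2 the change was 8.61-fold (log2 3.11, SE 0.0813). The ratio of CCL28 to CCL2 was 9.26-fold higher in HG-OE (log2 3.21, SE 0.0888), and that of CX3CL1 to CCL20 was 3.24-fold higher (log2 1.70, SE 0.0878). Between the 2 abundant chemokines that fell, the FPKM ratio of CCL20 to CCL2 went from 1.86 ± 0.0768 to 4.95 ± 0.337 (SD, n = 3 each). The count ratio rose 2.66-fold (log2 1.41, SE 0.0666). The FPKM ratio of CCL28 to CX3CL1 was 0.344 ± 0.0223 in HG-NC against 0.370 ± 0.00227 in HG-OE (SD, n = 3 each), and the log2 count ratio differed by 0.10 (SE 0.0543). For each of these 5 log2 count ratios the exact two-sided permutation test gave 0.1, the smallest p it can give with 3 libraries against 3. Benjamini-Hochberg adjustment over the 5 leaves it at 0.1.

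The other ligands of the family were hardly present. Of 24 other CC and XC chemokine genes, 12 had a row in the table and 1 passed the filter. That gene, CCL27, a skin chemokine that shares the receptor CCR10 with CCL28, had 13, 11 and 15 counts in HG-NC and 20, 16 and 16 in HG-OE (log2 fold change 0.29, edgeR adjusted p = 0.486). The other 11 had at most 5 counts in any library.

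Of 15 receptor genes, 10 had a row and 2 passed the filter. CCR3, the eotaxin receptor that also binds CCL26, CCL28, CCL5 and CCL7, had 12, 11 and 2 counts in HG-NC and 39, 36 and 68 counts in HG-OE. The groups did not overlap, and the level stayed low. Its log2 fold change was 2.37 (SE 0.450, edgeR adjusted p = 5.76e-04), and without HG-OE replicate 3 it was 2.03 (SE 0.410). CCR10 had 75, 55 and 99 counts in HG-NC and 65, 101 and 84 in HG-OE, which overlapped (log2 fold change 0.01, SE 0.223, adjusted p = 0.979). The remaining 8 had at most 15 counts in any library. Among those with no row were CCR2, CCR6 and CX3CR1, which bind CCL2, CCL20 and CX3CL1, and CCR8.

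All 11 genes of chemokine processing and presentation passed the filter, and their median log2 fold change was −0.08. At an edgeR adjusted p under 0.05, 4 of them fell and 4 rose, each by less than 2-fold, beside 25.9% of all tested genes in each direction. Without HG-OE replicate 3 the numbers were 3 and 4. DPP4, a protease that clips the amino end of many chemokines including CCL5, had 1222, 1217 and 1272 counts in HG-NC and 2524, 2452 and 2558 in HG-OE, and rose by 0.90 on the log2 scale (SE 0.0460, adjusted p = 5.17e-09). ADAM17 and ADAM10, which release CX3CL1, were lower. ADAM17, which releases CX3CL1 on stimulation, had 2405, 2294 and 2370 counts in HG-NC and 1864, 1822 and 1758 in HG-OE, and fell by 0.50 on the log2 scale (SE 0.0522, adjusted p = 3.26e-06). ADAM10, which releases it constitutively, changed by −0.13 on the log2 scale (SE 0.0451, adjusted p = 0.0235). Of the same list, CTSS (−0.08, adjusted p = 0.127) and RHBDF2 (−0.12, adjusted p = 0.139) did not reach the threshold, and RHBDF1 rose (0.36, adjusted p = 0.0126). The heparan sulfate enzyme NDST1, which shapes the sugar chains that hold chemokines at cell surfaces, rose by 0.43 on the log2 scale (SE 0.0446).

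All 17 genes of the inducing pathways passed the filter, with 7 lower and 5 higher at edgeR adjusted p under 0.05, a threshold that 25.9% of all tested genes passed in each direction, and a median log2 fold change of −0.04, and the same counts were found without HG-OE replicate 3. Lower were the NF-κB subunits NFKB1 (log2 fold change −0.98, SE 0.0475, adjusted p = 3.25e-09) and REL (−0.92, SE 0.0925, adjusted p = 2.16e-06), while the subunit RELA had a log2 fold change of 0.08 (adjusted p = 0.142). NFKB1 counts were 2749, 3077 and 3181 in HG-NC and 1705, 1687 and 1567 in HG-OE. Also among the lower genes were the interferon-gamma receptor chain IFNGR1 (−0.80), the double-stranded RNA sensor TLR3 (−0.45), and the factors IRF1 (−0.20) and STAT6 (−0.20). Higher were the lipopolysaccharide receptor TLR4, with 47, 55 and 73 counts against 184, 172 and 196 (1.54, SE 0.158, adjusted p = 2.70e-06, the one gene of the list called at 2-fold), the IL-17 receptor chains IL17RC (0.80) and IL17RA (0.31), the TNF receptor TNFRSF1A (0.59) and the IL-13 receptor chain IL13RA1 (0.49).

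The 7 genes of AU-rich mRNA decay and stability all passed the filter. At an edgeR adjusted p under 0.05, 5 of them fell and 1 rose, each by less than 2-fold, beside 25.9% of all tested genes in each direction, with a median log2 fold change of −0.22. The lower ones were HNRNPD, which binds AU-rich elements (10827, 11370 and 11217 counts against 7348, 7482 and 7900; log2 fold change −0.68, SE 0.0400), the decay factors ZFP36L2 (−0.64, SE 0.0758) and ZFP36L1 (−0.38, SE 0.0406), the stabilising ELAVL1 (−0.18) and the decay factor KHSRP (−0.17). ZC3H12A, an endonuclease that cuts inflammatory mRNAs, rose by 0.23 on the log2 scale. ZFP36, the founding member of its family, had a log2 fold change of −0.22 (SE 0.144, adjusted p = 0.230). Without HG-OE replicate 3, 6 were lower and 1 higher, and the median was −0.35.

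**Figure D4:**
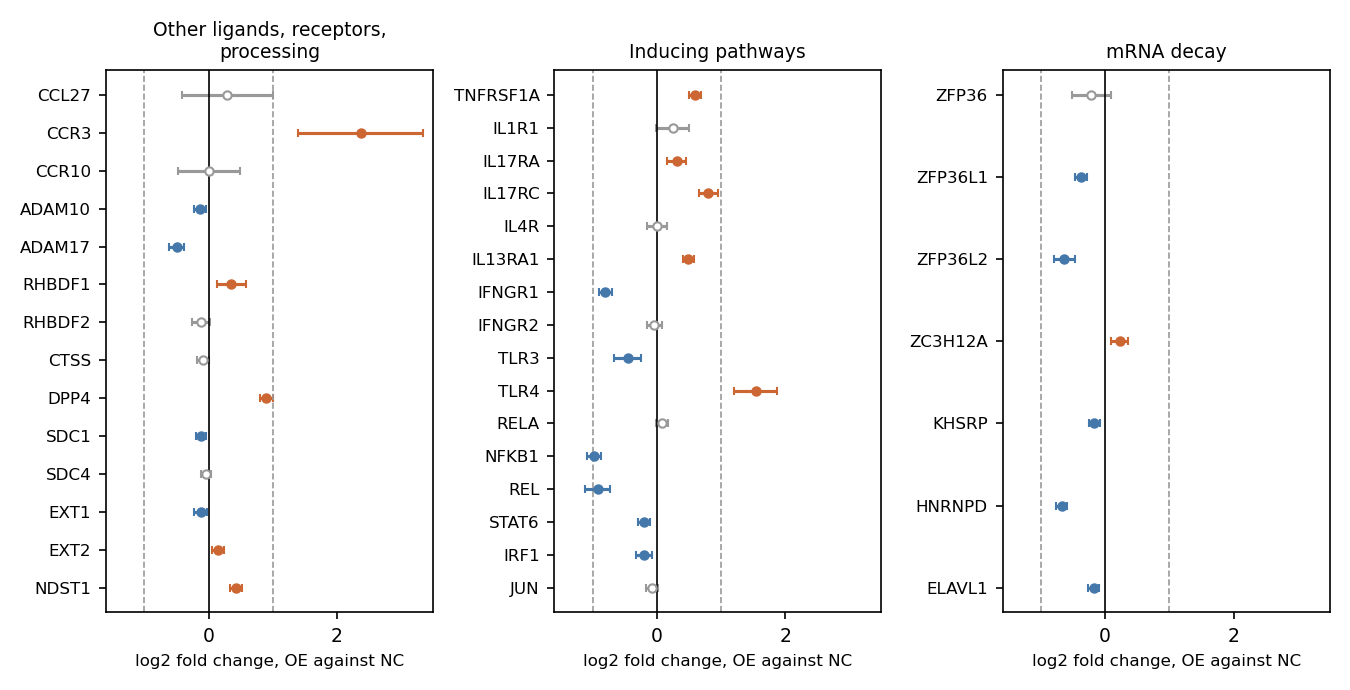
Log2 fold change of HG-OE against HG-NC (edgeR, bars for the 95% interval) of tested genes among other ligands, receptors and processing genes, inducing pathways and mRNA decay. Filled points have an adjusted p under 0.05 (orange higher, blue lower), open grey points do not, and dashed lines mark 2-fold. CCR3 at 2.37 and TLR4 at 1.54 lie beyond the 2-fold line.

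The genes around each chemokine were compared with it, using annotated starts on GRCh38. Of all genes tested, 48.9% had a log2 fold change below 0. CCL2 had 9 other tested genes within 1 Mb, all downstream of it, with a median log2 fold change of −0.24. All 9 were below 0 and none was called, and the nearest protein-coding one, ZNF830, started 706 kb away (−0.31, SE 0.0798). CCL20 had 6, with a median of −0.19. Of these 5 were below 0 and 1 above. DAW1 at 65.3 kb had a log2 fold change of −0.88 (SE 0.109), and SLC19A3, a thiamine transporter at 87.7 kb on the other side, was called higher at 5.20 (SE 0.642). SLC19A3 had 4, 2 and 4 counts in HG-NC against 67, 73 and 275 in HG-OE, most of them in HG-OE replicate 3, without which it was 4.23 (SE 0.394). CCL5 had 27, with a median of −0.24 and none called, and its nearest were RDM1 on one side (−0.49) and TAF15 on the other at 71.3 kb (−0.55). These 27 include all 9 neighbours of CCL2, which lie between CCL2 and CCL5, so the medians of CCL2 and CCL5 are not separate observations.

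CCL28 had 15 tested genes within 1 Mb, with a median of 0.28. Of these 13 were above 0 and none was called, and the nearest were TMEM267 at 71.5 kb (0.04) and HMGCS1, of cholesterol synthesis, at 98.9 kb (0.88). CX3CL1 had 41, with a median of −0.09, 1 called lower, and its nearest were CIAPIN1 (0.03) and PLLP (0.32). CCL26 had 28, with a median of 0.29. CCL7 had 10, which were CCL2 and the same 9 neighbours as those of CCL2, with a median of −0.28.

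**Figure D5:**
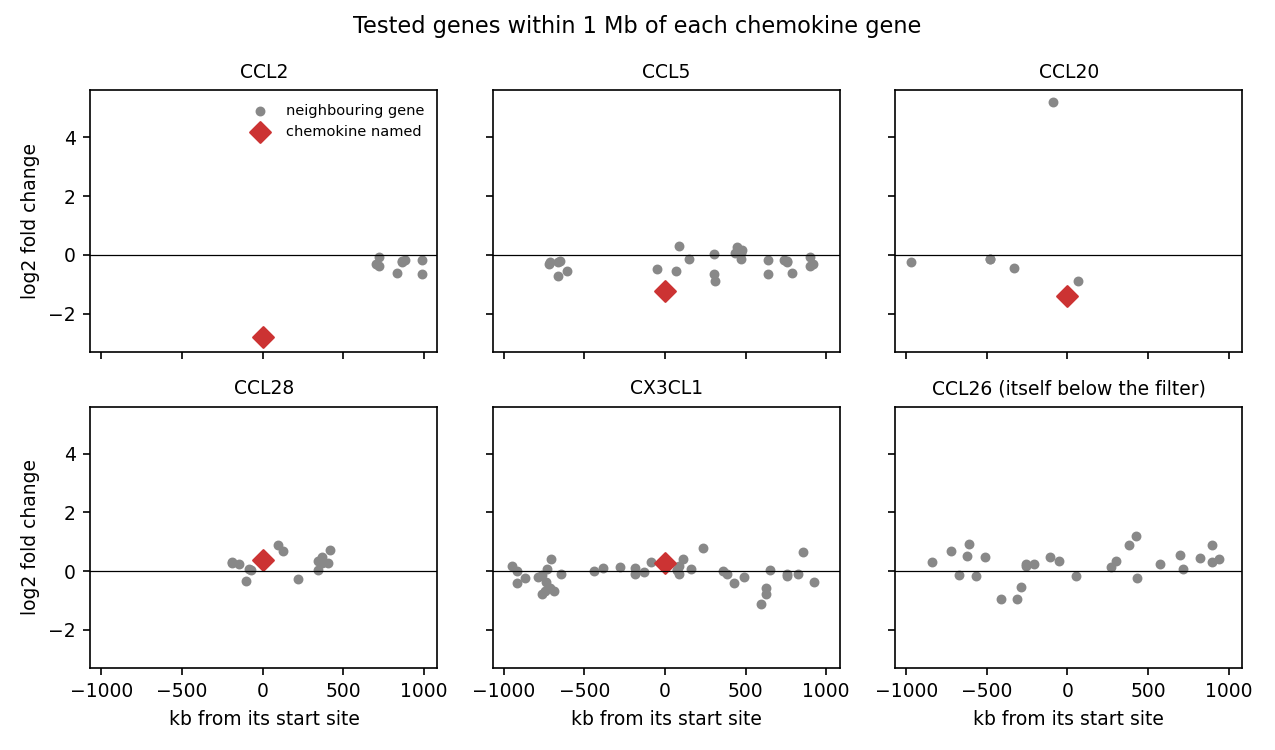
Log2 fold change (edgeR) of the tested genes within 1 Mb of 6 chemokine genes against the distance of their starts in kb, with the chemokine itself as a red diamond where it was tested. CCL2 at −2.82 lies far below its 9 neighbours, CCL20 has SLC19A3 at 5.20 on one side, and CCL28 and CX3CL1 lie among their neighbours.

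For each tested chemokine, the protein-coding genes with the most similar profile over the 6 libraries were found by Euclidean distance between centred log2 CPM, among genes with a mean of at least 50 counts. For CCL2 the closest was CXCL3, a neutrophil chemokine, at a distance of 0.583 (Pearson r 0.999 over 6 libraries, log2 fold change −2.34, SE 0.0773), followed by LCN10 (−2.37) and TNFAIP6, an inflammation-induced hyaluronan-binding protein (−2.19). For CCL20 they were FSD1L (distance 0.109, log2 fold change −1.41), the stress kinase MAP3K5 (0.116, −1.44) and the interferon-induced IFIT2 (0.147, −1.45). CCL5 was closest to TC2N (0.519, −0.85), PID1 (0.798, −0.66) and EMB (0.833, −0.69), of which none had an adjusted p under 0.05. Without HG-OE replicate 3 the log2 fold changes of these 3 genes were −1.65, −1.44 and −1.38, each with an edgeR adjusted p under 0.05. CCL28 was closest to GDF11, PSMB8 and ARF4 (distances 0.0452 to 0.0563), and CX3CL1 to ARHGAP31, FBXL19 and BRPF3 (0.0267 to 0.0520). With 2 groups of 3 libraries, these distances and correlations mainly reflect the difference between the groups.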

How the data were processed

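RNA-seq was done on polyadenylated RNA of 3 HG-NC and 3 HG-OE libraries. Reads had been trimmed by the authors and mapped with HISAT2 (version not given in the sources used here) on GRCh38, and uniquely mapped reads were kept. The authors deposited whole-number counts per gene and FPKM values rounded to 2 decimals. The methods name ComBat_seq for batch correction. Its batches and whether it entered the deposited counts are not given in the sources used here, and no batch term was fitted.

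The tests on counts were run with edgeR 4.0.16 under R 4.3.3 (TMM, default low-count filter, quasi-likelihood test), which kept 17142 of 31831 genes. P-values were adjusted over all genes tested by the Benjamini-Hochberg method. Genes were called at adjusted p under 0.05 and at least 2-fold, as in the study, which used DESeq2 for this. CPM was the count scaled to the library total. DESeq2 1.42.0 on counts and limma 3.58.1 on log2(FPKM + 1) and log2(FPKM + 0.1) were alternatives. Gene positions came from GENCODE on GRCh38, promoters from RefSeq. Intervals of counts and limits cover counting error only.

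The 7 chemokines, the lists of related genes and the tests were chosen with earlier results of these data known. Named were the 7 genes, HNRNPF, the lists with the values of their called and most counted members, the nearest tested coding genes on either side of each, and the 3 genes of most similar profile. Some further list members were named after their values were seen, and a few, though counted, are not reported here by name.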

Additional observations from a re-analysis of the deposited data

How the results depend on the processing

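The log2 fold changes of CCL2 (−2.91 to −2.71), CCL20 (−1.45 to −1.36), CCL28 (0.30 to 0.42) and CX3CL1 (0.25 to 0.33) kept their direction and side of the threshold under all 14 alternatives. CCL5 (−1.25) kept its direction under all 13 that gave it a value. It missed the adjusted p or the 2-fold threshold under limma on log2(FPKM + 1), where it was −0.57 with and without a filter, a scale that understates changes of low levels, and when any library but HG-OE replicate 3 was left out. With 1 library left out it ranged from −2.17, without HG-OE replicate 3, to −0.87. It had no value at a minimum of 10 counts in every library. CCL26 ranged from −0.38 to 0.16, and no log2 fold change of CCL7 was taken from the alternatives. Between 2 and 3 of the 7 genes were called lower. The number of genes called among all tested was 997, with 1539 without a low-count filter, 617 at a minimum of 10 counts in every library, 144 and 138 with limma on log2(FPKM + 1) with and without a filter, 8887 without the fold threshold, and 989 to 1124 with 1 library left out. Whether the replicate numbers pair the libraries was not decided. Deviations of libraries with the same number correlated between −0.03 and 0.03, and those with different numbers between −0.04 and 0.03. With 3 libraries per group, such values cannot exclude a pairing. Hepatocyte genes other than SERPINA1 peaked, as a sum, at replicate number 3 in each group. With the replicate block, 990 genes were called, CCL5 was −1.39 and no call of the 7 changed. The values of list genes, neighbours and similar genes without HG-OE replicate 3 were added after seeing the data. Depth limits CCL26 and CCL7 most, with at most 7 counts in a library.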
